A study of Mus musculus with 6 samples.

Results

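P4 and P5 were compared as a pair of stromal populations sorted from the omentum of wild-type C57BL/6 mice. Both were gated as CD45-CD140a+CD105- cells, and they differed in aldehyde dehydrogenase (ALDH) activity, which was intermediate in P4 and low in P5. CD140a is a receptor for platelet-derived growth factor that marks fibroblasts, CD45 marks hematopoietic cells, and CD105 is endoglin, a coreceptor for TGF-β. ALDH activity was read with a substrate that becomes fluorescent inside cells that oxidize aldehydes. The other 4 populations of the series were P1 (ALDH high), P2 (ALDH intermediate) and P3 (ALDH low), which shared the surface gate CD45-CD140a+CD105+, and P6, a CD45- fraction low in CD140a and positive for ALDH activity. No agent was given to these mice, and their age and the number of animals behind a library are not given in the sources used here.

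RNA-seq was performed on 1 library per population, so there was no replicate check, no test across genes was run and no p-value is given. A difference below is a difference between these 2 libraries. Intervals in parentheses are 95% exact binomial intervals on estimated reads. They cover counting error only and not the spread between mice or sorts. Estimated depth was 58.5 M reads in P4 and 61.9 M in P5, and over the 6 libraries it ran from 36.9 M in P6 to 61.9 M in P5. The files held 23352 genes, and 11792 of them, with a mean of at least 1 FPKM (a fragment count corrected for exon length and for the total of mapped reads) over P4 and P5, were compared. The 35 pancreatic acinar enzyme genes that passed the same minimum were set apart, because they encode enzymes of the pancreas, a neighboring organ, and their levels differed widely between the libraries.

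The omentum is a fold of visceral fat and peritoneum that holds milky spots, clusters of lymphocytes and macrophages organized by fibroblastic stroma. Stromal cells there make chemokines such as CXCL13, which attracts B cells, and enzymes of the ALDH1A family, which convert retinaldehyde to retinoic acid. Fibroblasts of the adventitia and of fat form a continuum that includes progenitors rich in matrix glycoproteins, and mesothelial cells cover the surface of the tissue.

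The genes of the gate were at their labelled levels in both libraries. Pdgfra, which encodes CD140a, had 119 FPKM in P4 and 117 in P5. Eng, which encodes CD105, had 0.359 FPKM in P4 and 0.231 in P5, against 42.6 to 52.4 in P1 to P3. Ptprc, which encodes CD45, had 0.312 FPKM in P4 and 0.186 in P5. The fibroblast matrix genes Col3a1 (2647 and 2100 FPKM in P4 and P5) and Dcn (5250 and 4859 FPKM) were abundant in both. The 3 marker genes Cxcl13, Tgm2 and Tmem176b all read lower in P4, as described below, although Cxcl13 alone of them passed 2-fold.

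P4 and P5 were much alike over all genes. Spearman's correlation of FPKM across the 11792 genes, which are not independent replicates, was 0.969. Of these genes, 384 (3.26%) were at least 2-fold higher in P4 and 150 (1.27%) were at least 2-fold higher in P5, where the fold was taken on FPKM + 0.1, and 11258 lay within 2-fold. The median log2 ratio of P4 to P5 over all genes was −0.04, and 5% of genes lay below −0.50 and 5% above 0.74. Counts of called list members below are to be read beside the shares of 3.26% and 1.27%. A short list with none called lies near them. The lists were chosen with earlier results of these data known, and some genes are in several lists. Counts of different lists are therefore not independent of each other. Small RNAs, which this kind of library measures poorly, made up 33 of the genes higher in P4 and 43 of those higher in P5. A further 2 genes, G3bp2 (34.8 FPKM in P4) and Dnmt3a (8.55 FPKM in P4), were listed at 0 in P5 alone among the 6 libraries, and no fold is given for them. Dnmt3a was chosen after its values were seen. Without small RNAs and listed zeros, 349 genes were higher in P4 and 107 were higher in P5. The counting interval of the ratio could be given for 344 and 99 of these, and it lay above 2 for 278 and 66. At the edge of the rule, Mcc (log2 ratio 1.001) lay just inside and Arrdc3 (0.999) just outside on the P4 side, and Foxs1 (−1.003) lay just inside and Mtss1l (−0.995) just outside on the P5 side.

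**Figure D1:**
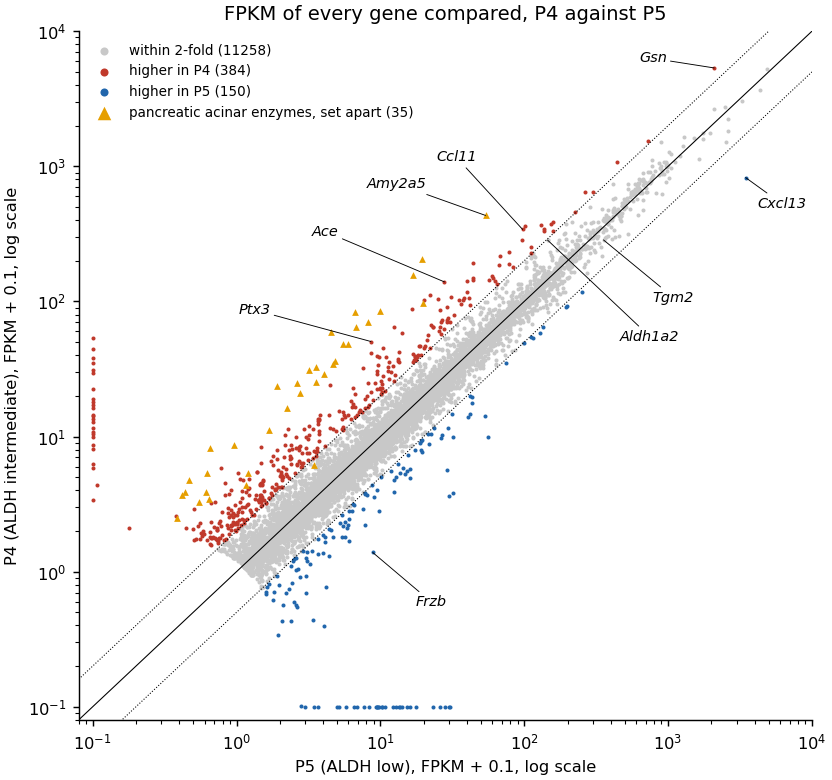
FPKM + 0.1 of every gene compared in P5 (horizontal, log scale) and P4 (vertical, log scale), 1 point per gene, with red for the 384 genes at least 2-fold higher in P4, blue for the 150 at least 2-fold higher in P5, gray for the 11258 within 2-fold and orange triangles for the 35 acinar enzyme genes. The solid line marks equal values, dotted lines mark a ratio of 2 either way, and points on the lower and left edges are listed at 0. Cxcl13 stands apart on the P5 side and most of the acinar enzymes on the P4 side.

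The gates separated the cells by ALDH activity, and the aldehyde dehydrogenase gene with the largest ratio of P4 to P5 was Aldh1a2, which encodes a retinaldehyde dehydrogenase. Its level was 285 FPKM in P4 and 145 FPKM in P5, a ratio of 1.96 (1.9 to 2.0), which fell short of 2-fold on the scale used here. With the libraries scaled by the median of ratios or divided by Gapdh, its log2 ratio of 0.97 became 1.01 and 1.08 and passed. Aldh1a3, of the same family, had 8.99 FPKM in P4 and 6.73 in P5, a ratio of 1.34 (1.2 to 1.5). Aldh1a1, the third enzyme of the family, went the other way, with 78.3 FPKM in P4 and 90.7 in P5. None of the 16 aldehyde dehydrogenase genes compared was called in either direction, and their median log2 ratio was −0.07. Of all genes compared, 3.26% were called in P4 and 1.27% in P5, so none of 16 lay near those shares. Aldh2, the mitochondrial enzyme, was abundant and nearly level, with 256 FPKM in P4 and 263 in P5. Among the CD105+ cells, Aldh1a2 had 469 FPKM in P1, the ALDH-high population, 78.8 in P2 and 134 in P3, so the ALDH-high population read highest and the order of P2 and P3 was opposite to that of their ALDH activity.

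Other genes of retinoid metabolism differed in part. Of 21 compared, 2 were at least 2-fold higher in P4 and none in P5. They were Adh1, an alcohol dehydrogenase that oxidizes retinol (65.0 and 25.9 FPKM), and Rbp4, which carries retinol (13.9 and 6.51 FPKM). Rdh10, which makes retinaldehyde, had 112 FPKM in P4 and 149 in P5. Tgm2, a transglutaminase gene known to respond to retinoic acid, had 285 FPKM in P4 and 356 in P5, and over P1 to P3 it had 32.5, 60.2 and 134 FPKM. Its ratio of P5 to P4 was 1.25 (1.23 to 1.26). In P6, Tgm2 had 328 FPKM, so P4, P5 and P6 each read above P1, P2 and P3. A link of the Tgm2 level to that of Aldh1a2 was not tested. The 8 genes of efflux pumps, which can export the fluorescent substrate, included 7 that were compared, and none was called. That count lay near the shares over all genes compared, 3.26% in P4 and 1.27% in P5. Abcb1b had 30.7 and 28.6 FPKM and Abcg2 had 12.6 and 14.8 FPKM in P4 and P5.

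The genes higher in P4 are given first for a mean of at least 5 FPKM, without small RNAs, predicted genes, acinar enzymes and G3bp2. Ptx3, a pentraxin that binds hyaluronan complexes, had 50.4 FPKM in P4 and 8.50 in P5, a ratio of 5.93 (5.52 to 6.37). Galnt16, a glycosyltransferase, had 24.0 and 4.39 FPKM. Cxcr7, the scavenger receptor for CXCL12, had 87.3 and 16.5 FPKM, a ratio of 5.29 (5.08 to 5.51). Nov, a matricellular protein of the CCN family, had 64.2 and 12.3 FPKM. Pcolce2, which enhances procollagen processing, had 102 and 19.9 FPKM. The other genes of this group with the widest ratios were Pla1a, Ace, Adam23, Ccdc3, Sfrp2, Ly6c1, Pcsk6, Ly6c2 and Adm, and their ratios ran from 5.17 for Adam23 to 4.16 for Adm. Ly6c1 and Ly6c2 are close copies of each other, and reads may be split between them. Below that mean, wider ratios than that of Ptx3 included those of Hba-a2 (4.25 and 0.00657 FPKM) and Krt25 (2.02 and 0.0781 FPKM), the second of which was chosen after its values were seen. Hba-a1, a close copy of Hba-a2, read lower in P4 (51.1 and 87.2 FPKM), and reads may be split between them.

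**Figure D2:**
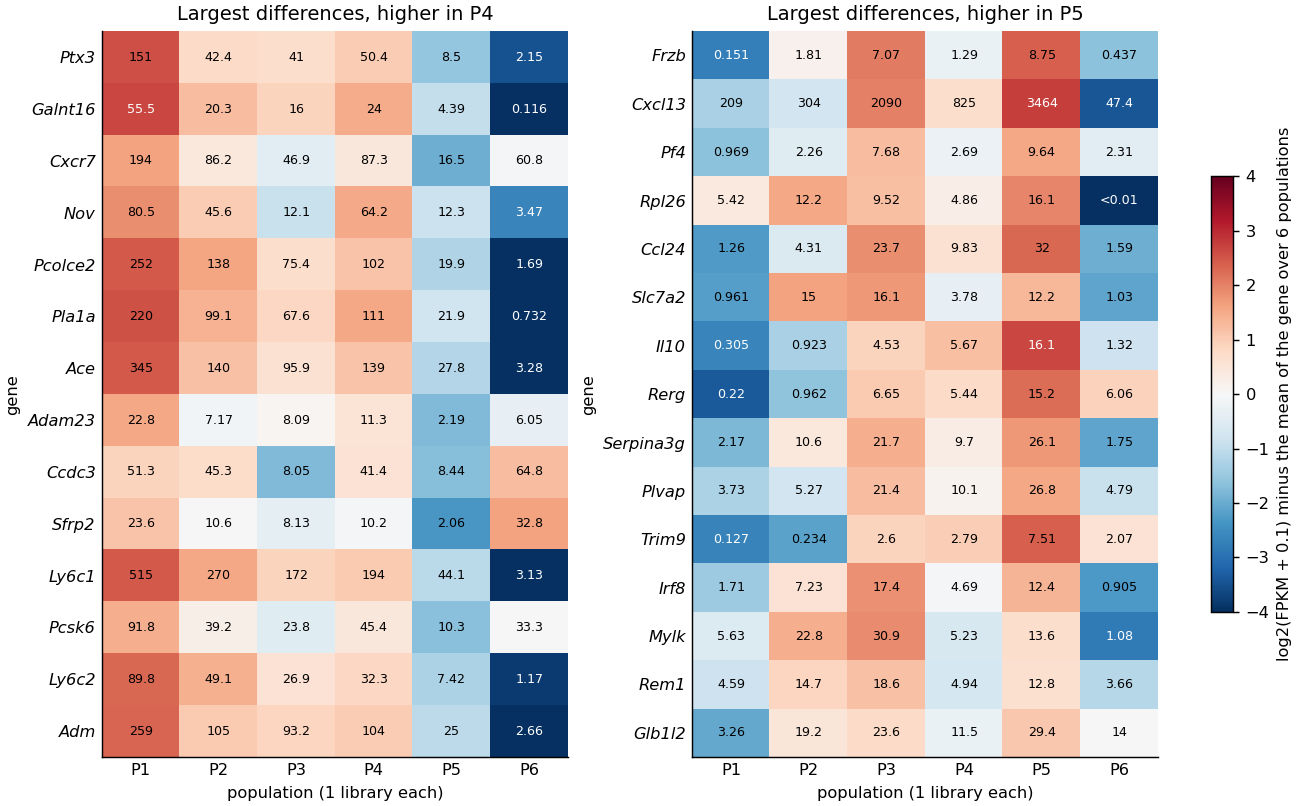
FPKM in the 6 populations (columns, 1 library each) of the genes with the largest ratio of P4 to P5 (left) and of P5 to P4 (right) at a mean of at least 5 FPKM (rows), with small RNAs, predicted genes and acinar enzymes left out, and G3bp2 because it is listed at 0 in P5. Numbers are FPKM, and colors give log2(FPKM + 0.1) minus the mean of the gene over the populations. Most genes on the left read highest in P1 and fall from P4 to P5, and most genes on the right read highest in P5 or P3.

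Most members of the list of adventitial fibroblast progenitor genes were higher in P4. Of 24 compared, 16 were at least 2-fold higher in P4 and none in P5, and the median log2 ratio was 1.26. Dpt, a dermatopontin of collagen fibrils, had 650 FPKM in P4 and 264 in P5, a ratio of 2.46 (2.4 to 2.5). Clec3b had 1082 and 443 FPKM, Col14a1 had 141 and 40.1 FPKM, and Anxa3 had 107 and 30.7 FPKM. Pi16 and Dpp4, used to mark the earliest of these progenitors, had 40.2 and 18.2 FPKM and 11.0 and 5.42 FPKM, and the counting interval of Dpp4 included 2 (1.92 to 2.16). With the libraries scaled to a common sum of FPKM, the log2 ratio of Dpp4 was 0.97, short of 2-fold. Gsn, which encodes the actin-severing protein gelsolin, was the most abundant gene called, with 5350 and 2092 FPKM. Gsn was listed at 0 in P1, P2 and P3, which can be a failed estimate and does not show that those cells lack it, since Col3a1 was also listed at 0 in P2 and had 2100 FPKM or more in each other library. Cd34 (565 and 498 FPKM) was near level between P4 and P5.

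Genes of the preadipocyte list followed in the same direction. Of 29 compared, 12 were at least 2-fold higher in P4, none in P5, and the median log2 ratio was 0.73. Among the called genes, Col4a1, Col4a2, Gpc3, Gdf10, Ebf1 and Ebf2 are counted again in lists below. Pparg, the nuclear receptor that drives fat cell differentiation, had 6.15 FPKM in P4 and 2.30 in P5. Lpl, lipoprotein lipase, had 180 and 83.1 FPKM. Ebf1 and Ebf2, early B cell factor family members that act in adipogenesis, had 27.8 and 10.3 FPKM and 11.9 and 3.09 FPKM. Fabp4, a fatty acid binding protein, read the other way, with 218 and 349 FPKM. Genes of mature adipocytes were mostly low in both libraries, with Adipoq at 0.0828 FPKM in P4 and 0.126 in P5 and with 4 of 12 genes compared. Car3, a carbonic anhydrase abundant in fat, was the member called, with 21.3 and 10.1 FPKM.

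**Figure D3:**
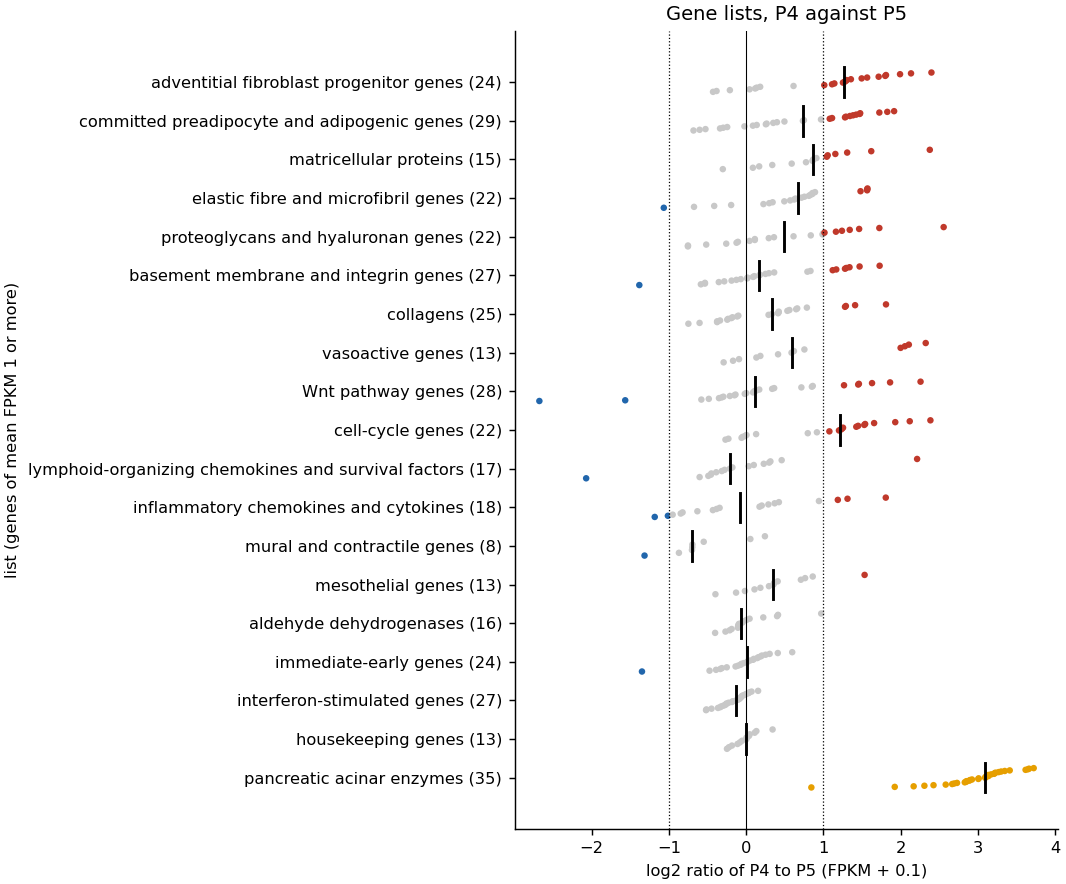
Log2 ratio of P4 to P5 (horizontal, on FPKM + 0.1) of the members of 19 gene lists, 1 point per gene of at least 1 mean FPKM, with the number of genes in parentheses and a black bar at the median of each list. Red and blue points passed 2-fold, dotted lines stand at −1 and 1, and orange points are the acinar enzymes, whose median of 3.09 lies beyond that of each other list shown.

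Matrix genes were higher in P4 in part. Among 25 collagens, 4 were at least 2-fold higher in P4 and none in P5. These were Col14a1, the fibrillar chain Col5a3 (70.2 and 26.4 FPKM) and the basement membrane chains Col4a1 (372 and 153 FPKM) and Col4a2 (191 and 78.0 FPKM). The fibrillar chain Col1a1 had 898 and 670 FPKM and did not pass 2-fold, and Col6a5 read lower in P4, with 163 and 273 FPKM. Of 27 basement membrane and integrin genes, 7 were higher in P4 and 1 was higher in P5. The laminin chains Lamb1 (149 and 60.6 FPKM), Lamc1 (140 and 62.5 FPKM) and Lama4 (70.3 and 28.9 FPKM) and the linker Nid1 (345 and 136 FPKM) were on the P4 side, whereas the chain Lama5 (1.71 and 4.62 FPKM) was on the P5 side.

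The elastic fiber genes split by member. Fbn1, which encodes fibrillin of the microfibril, had 287 and 97.0 FPKM, a ratio of 2.96 (2.93 to 2.99), and Fbln5, Ltbp1 and Mfap5 were called with it among 22 genes compared. Ltbp2, which binds fibrillin, was the 1 member called in P5, with 9.27 FPKM in P4 and 19.5 in P5. Among 22 proteoglycan and hyaluronan genes, 7 were higher in P4 and none in P5, and Gpc3, a glypican, had 145 and 43.8 FPKM. Among 15 matricellular genes, 6 were higher in P4 and none in P5, while Postn, which encodes periostin, had 115 and 63.2 FPKM and did not pass 2-fold. Among 34 matrix proteases and inhibitors, 8 were higher in P4, and they included the gelatinase Mmp2 (103 and 37.5 FPKM) and the inhibitor Serpine2 (86.0 and 25.8 FPKM).

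Vasoactive genes had 4 of 13 members higher in P4 and none in P5. Ace, the angiotensin-converting enzyme, had 139 FPKM in P4 and 27.8 in P5, a ratio of 5.02 (4.88 to 5.16). Agtr1a, the receptor for the product of that enzyme, had 6.27 and 1.38 FPKM. The vasodilator peptide gene Adm had 104 and 25 FPKM, and Edn1, which encodes the vasoconstrictor endothelin, had 4.79 and 1.12 FPKM. Tek, the angiopoietin receptor, had 11.3 and 2.84 FPKM, and Phex, a membrane peptidase, had 5.71 and 0.680 FPKM. Ptx3, Ace, Adm, Tek and Phex belong to a list of 13 genes that the study named for the ALDH-high population P1, of which 9 were higher in P4 and none in P5. The study picked those 5 and Postn on these libraries, P4 and P5 among them, and their count is not independent evidence of a direction. The other called members, Clec3b, Gsn, Mfap5 and Ccl11, were named there from single-cell data of omental stroma.

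Signaling genes moved both ways. Of 28 Wnt pathway genes, 6 were higher in P4 and 2 in P5. The secreted Wnt inhibitors were on both sides, with Sfrp2 (10.2 and 2.06 FPKM), Sfrp4 (13.4 and 3.61 FPKM), Sfrp1 and Dkk2 higher in P4 and Frzb (1.29 and 8.75 FPKM) higher in P5. Frzb had the largest ratio of P5 to P4 among genes with a mean of at least 5 FPKM other than small RNAs, at 6.81 (5.91 to 7.86). The ligand Wnt11 (4.38 and 1.35 FPKM) was higher in P4 and the ligand Wnt6 (0.722 and 2.33 FPKM) in P5. In the TGF-β and BMP list, 5 of 29 genes were higher in P4, including the activin antagonist Fst (32.7 and 11.2 FPKM), and none was higher in P5. Among growth factor genes, Fgf7 (10.8 and 3.63 FPKM) was higher in P4 and the receptor Fgfr4 (6.15 and 13.1 FPKM) in P5. Of 40 transcription factor genes, 5 were called in P4, with Tcf21 (72.8 and 29.0 FPKM) the most abundant, and 1 in P5. None of 16 Hox genes was called. Over all genes compared, 3.26% were called in P4 and 1.27% in P5. The 1 transcription factor called in P5 and the Hox count lay near those shares.

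Cxcl13 had the largest excess of FPKM in P5 over P4 of the genes called. It had 825 FPKM in P4 and 3464 in P5, a ratio of 4.20 (4.16 to 4.24), and over P1, P2, P3 and P6 it had 209, 304, 2090 and 47.4 FPKM. Within each CD105 gate the ALDH-low population therefore read highest. The other organizing chemokines and survival factors did not follow. Of 17 compared, Cxcl13 was the 1 gene higher in P5, and Tnfrsf11b, a decoy receptor for the cytokine RANKL, was the 1 gene higher in P4 (4.77 and 0.952 FPKM). Ccl19 had 39.8 and 46.0 FPKM, Cxcl12 had 144 and 117 FPKM, and Il7 had 4.50 and 6.21 FPKM.

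Inflammatory chemokines and cytokines divided as well, with 3 of 18 higher in P4 and 2 in P5. Ccl11, the eosinophil chemokine eotaxin, had 341 FPKM in P4 and 97.4 in P5, a ratio of 3.50 (3.39 to 3.61). Cxcl9 and the epithelial cytokine Tslp were also called in P4, at 3.58 and 2.14 FPKM there. Il34, a ligand of the CSF1 receptor, had 49.2 and 99.4 FPKM, and its interval for P5 over P4 included 2 (1.95 to 2.09). Divided by Gapdh, the log2 ratio of Il34 was −0.90, short of 2-fold. Cxcl5 had 2.19 and 5.11 FPKM. Ccl2 (149 and 201 FPKM), Il6 (151 and 117 FPKM) and Il33 (130 and 169 FPKM) lay within 2-fold. Complement genes C4b (384 and 157 FPKM) and C4a (51.8 and 21 FPKM), which are close copies of each other, and Vtn were higher in P4, and the other 16 of 19 complement genes lay within 2-fold.

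The next genes on the P5 side were lower in level than Cxcl13. Ccl24, a second eotaxin, had 9.83 FPKM in P4 and 32.0 in P5, and Il10, an anti-inflammatory cytokine, had 5.67 and 16.1 FPKM, a ratio of 2.84 (2.5 to 3.2). Pf4, a platelet chemokine also made by macrophages, had 2.69 and 9.64 FPKM. Irf8, a transcription factor of myeloid and B cells, had 4.69 and 12.4 FPKM. Plvap, a protein of endothelial fenestrae, had 10.1 and 26.8 FPKM. The other genes with the widest ratios were Slc7a2, Rerg, Serpina3g, Trim9, Mylk, Rem1, Glb1l2 and Rpl26, with ratios of P5 to P4 from 3.31 for Rpl26 to 2.56 for Glb1l2. Rpl26, a ribosomal protein gene, was below 0.01 FPKM in P6 and between 4.86 and 16.1 in the others, and its value is uncertain because ribosomal protein genes have many processed copies.

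Tmem176b, a membrane channel gene, had 620 FPKM in P4 and 909 in P5, a ratio of 1.47 (1.45 to 1.49), and its neighbor Tmem176a had 303 and 453 FPKM. Mural and contractile genes leaned the same way, with 1 of 8 called. Abcc9, a subunit of potassium channels, had 8.65 and 21.7 FPKM, and Des, desmin, had 118 and 191 FPKM. Myh11, a smooth muscle myosin, had 56.6 and 91.8 FPKM, whereas the pericyte gene Rgs5 had 0.127 and 0.121 FPKM. The nerve growth factor receptor Ngfr (1.71 and 5.34 FPKM) and the adhesion molecule Cadm4 (91.2 and 196 FPKM) were higher in P5, and S100b (4.30 and 1.36 FPKM) was higher in P4. The median log2 ratio of the mural list was −0.70.

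Cell-cycle genes formed a further group on the P4 side, and most of its genes act in mitosis. Of 22 compared, 13 were at least 2-fold higher in P4 and none in P5, and the median log2 ratio was 1.21. With a minimum of 5 FPKM, Top2a alone of the 13 was left and the median of the list turned to −0.030. Ccnb1, cyclin B1, had 5.25 FPKM in P4 and 0.925 in P5, a ratio of 5.67 (4.63 to 7.01). Birc5, of the chromosomal passenger complex, had 4.70 and 1.01 FPKM, and Ccnb2, cyclin B2, had 6.53 and 1.64 FPKM. Top2a, the topoisomerase that untangles chromosomes, had 7.80 and 2.62 FPKM, Cenpa, the centromeric histone, had 4.70 and 1.42 FPKM, and Mki67, the proliferation antigen, had 4.34 and 1.78 FPKM. Among genes of DNA replication, Rrm2 (2.74 and 1.14 FPKM) was called, and others were level, with Pcna at 53.0 and 62.1 FPKM and Mcm6 at 15.9 and 14.6 FPKM, and so was Ccnd2 (32.1 and 32.4 FPKM). The median of the 13 called genes was 1.45, 1.41, 1.19, 4.34, 1.35 and 4.89 FPKM in P1 to P6. These genes were chosen for a value at least 2-fold higher in P4 than in P5, so P4 above P5 was fixed by the choice. Over all 26 genes of the list, the sum was 133, 135, 148, 229, 205 and 217 FPKM in P1 to P6. The 13 called genes held 56.2 FPKM of that sum in P4 and 18.5 in P5. The rest came mostly from genes within 2-fold such as Pcna and Ccnd1 (49.2 and 59.3 FPKM).

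Promoters of mitotic genes are known for CCAAT boxes, bound by NF-Y, and for the cell-cycle genes homology region (CHR), bound by the DREAM and MuvB complexes. For 4 of the called genes, picked by hand as examples, the stretches of 150 bases before the start are shown. They are from RefSeq on GRCm38.p6, 5′ to 3′ on the strand of the gene. Capitals mark CCAAT, which reads as ATTGG where it lies on the other strand. They also mark TTTGAA, the letters searched for CHR, which read as TTCAAA where they lie on the other strand. No marked matches overlapped.
Ccnb1, chr13:100786487-100786636, minus strand: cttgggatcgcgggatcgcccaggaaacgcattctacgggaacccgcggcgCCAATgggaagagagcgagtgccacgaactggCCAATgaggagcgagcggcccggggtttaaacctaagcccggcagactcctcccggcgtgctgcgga
Ccnb2, chr9:70421555-70421704, minus strand: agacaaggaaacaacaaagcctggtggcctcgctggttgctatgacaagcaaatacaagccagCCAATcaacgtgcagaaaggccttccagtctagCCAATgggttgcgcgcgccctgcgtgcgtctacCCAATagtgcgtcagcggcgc
Top2a, chr11:99024190-99024339, minus strand: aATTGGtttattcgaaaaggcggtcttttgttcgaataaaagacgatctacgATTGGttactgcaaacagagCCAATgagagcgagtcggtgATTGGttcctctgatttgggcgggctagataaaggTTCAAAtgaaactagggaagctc
Cenpa, chr5:30666736-30666885, plus strand: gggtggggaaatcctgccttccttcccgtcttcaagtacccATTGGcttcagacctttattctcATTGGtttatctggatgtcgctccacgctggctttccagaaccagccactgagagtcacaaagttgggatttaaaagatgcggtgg

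Each of these stretches held at least 2 CCAAT boxes, and that of Top2a held 4 and a TTTGAA match. Over a window of 300 bases (250 before and 50 after the start), 12 of the 13 called cell-cycle genes had a promoter in the table. CCAAT was in 10 of the 12 (83.3%) and TTTGAA in 7 (58.3%), against 37.9% and 18.1% of all 27025 promoters in the table, searched on both strands. Of the 9 cell-cycle genes within 2-fold, 7 had a promoter there, of which 7 held CCAAT and 3 held TTTGAA. These matches are a description of the sequence.

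Among genes of at least 5 mean FPKM, without small RNAs and G3bp2, pancreatic acinar enzymes held the largest ratios of P4 to P5. All 35 acinar genes of at least 1 mean FPKM read higher in P4, 34 of them at least 2-fold, with a median log2 ratio of 3.09. Not every member lay beyond the other genes, and Cela1 had a ratio of 4.96, below the 5.93 of Ptx3. Amy2a5, an amylase, had 433 FPKM in P4 and 53.7 in P5, a ratio of 8.05 (7.90 to 8.21), although amylase and trypsin genes are close copies among themselves. Ctrb1 (208 and 19.5 FPKM), Cela2a (157 and 16.8 FPKM), Cela1 (97.2 and 19.6 FPKM) and Pnlip (84.5 and 9.81 FPKM) were the other most abundant members. The summed level of the 51 listed genes was 19.6, 324, 44.0, 1710, 202 and 2473 FPKM in P1 to P6. None of the 5 acinar transcription factor genes and none of 10 islet and duct genes reached 1 mean FPKM over P4 and P5. P4 and P6 held the highest acinar sums. The called cell-cycle genes also read highest in P4 and P6, but they were chosen for a higher value in P4 than in P5. All 26 listed cell-cycle genes summed to 229, 205 and 217 FPKM in P4, P5 and P6. Of these sums, the 13 called genes held 56.2, 18.5 and 73.0 FPKM. The part of acinar RNA in the other differences was not tested.

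**Figure D4:**
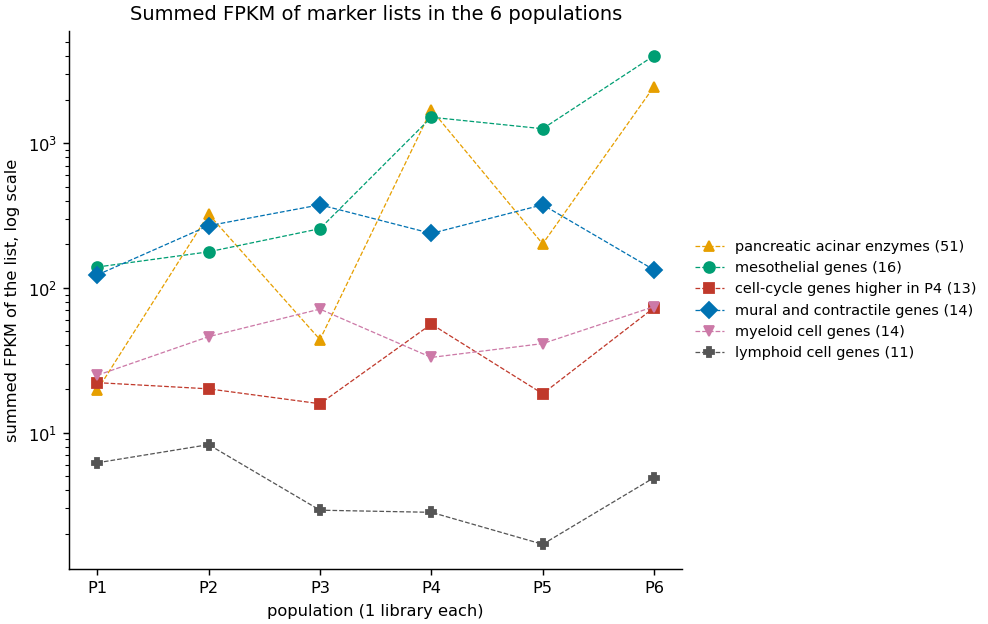
Summed FPKM (vertical, log scale) of 6 gene lists in P1 to P6 (horizontal, 1 library each), with the number of genes summed in parentheses and broken lines that join the points of a list. Acinar enzymes and the called cell-cycle genes read higher in P4 than in P5 and are highest in P6, and mesothelial genes sum to 1517 FPKM in P4 and 1263 in P5. The cell-cycle genes shown were chosen for a higher value in P4 than in P5.

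Genes of mesothelial cells were abundant in both P4 and P5, which the label of a CD140a+ stromal gate does not state. The 16 listed genes summed to 1517 FPKM in P4 and 1263 in P5, against 140 to 257 in P1 to P3 and 4044 in P6. Upk3b, a uroplakin of mesothelium, had 383 FPKM in P4 and 289 in P5, Krt19 had 197 and 116 FPKM, Lrrn4 had 135 and 110 FPKM, and Wt1, a transcription factor of mesothelium, had 149 and 197 FPKM. Of 13 compared, 1 was higher in P4, Msln (6.86 and 2.31 FPKM), and the median log2 ratio was 0.35. Whether some cells carried both mesothelial and fibroblast genes or the gates held both kinds of cell cannot be told apart in bulk RNA, nor can fewer cells of a type from less RNA per cell. The part of these genes in the differences between P4 and P5 was not tested.

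Markers of blood and vessel cells differed in level by cell type. None of the 11 lymphoid genes reached 1 mean FPKM, and their sum was 2.80 FPKM in P4 and 1.69 in P5. Of 14 myeloid genes, which summed to 33.1 and 41.2 FPKM, 6 were compared and none was called, with Lyz2 at 11.1 and 7.74 FPKM and Cd14 at 13.8 and 22.8 FPKM. Emr1, which encodes the macrophage marker F4/80, had 0.101 and 0.143 FPKM. The endothelial genes Pecam1 (0.0672 and 0.0955 FPKM) and Cdh5 (0.0315 and 0.0684 FPKM) were near 0, while Kdr (3.30 and 1.46 FPKM) was higher in P4, Plvap was higher in P5, and Esam had 15.1 and 9.55 FPKM. The 8 erythroid and platelet genes summed to 90.9 FPKM in P4 and 147 in P5. Hemoglobin Hba-a1 had 51.1 and 87.2 FPKM, and the platelet integrin gene Itga2b had 4.22 and 5.03 FPKM. These lists do not hold every gene of blood cells, and others were not counted in either direction. Spib (7.21 and 15.4 FPKM), Cd72 (2.09 and 5.43 FPKM) and Csf2rb (1.03 and 3.12 FPKM) were at least 2-fold higher in P5. So were Ncf4 (0.613 and 1.72 FPKM) and Aif1 (0.608 and 1.51 FPKM). All of these were chosen after their values were seen. Whether blood cells contributed to these genes or to Pf4, Irf8 or Il10 was not tested.

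Genes that respond to handling and genes of general cell functions were mostly level. None of 27 interferon-stimulated genes, 15 MHC genes, 41 glutathione and xenobiotic defense genes, 46 respiratory chain genes or 13 housekeeping genes was called, and their medians lay between −0.13 and 0.11 on the log2 scale. Of all genes compared, 3.26% were called in P4 and 1.27% in P5. Fos, an immediate-early gene that rises on tissue digestion, had 1773 FPKM in P4 and 1761 in P5. Of 24 immediate-early genes, Nr4a2 (3.45 and 8.94 FPKM) was the 1 called, higher in P5.

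The order of the other populations was then examined for the genes called, without small RNAs and listed zeros. P1, the ALDH-high population, read highest of the 6 for 255 of the 349 genes higher in P4, and it exceeded P4 for 287 of them. Among all 11687 compared genes other than small RNAs, P1 was highest for 14.5% and exceeded P4 for 33.4%. P1 fell below P5 for 105 of the 107 genes higher in P5, against 66.8% of all compared genes. P5 was highest of the 6 for 64 of these 107, and P3, the other ALDH-low population, for 31, against 26.2% and 8.33% of all compared genes. The 107 genes were chosen for a high value in P5, which favors P5 being highest and P1 lying below it. Examples on the P4 side that did not follow were the called cell-cycle genes, with P1 below P4 and P6 high, and Sfrp2, Ccdc3, Msln and Dpp4, with P6 highest.

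P2 and P3 differ by the same ALDH gates within CD105+ cells and share no library with P4 and P5. In that contrast, 11776 genes were compared, of which 86 (0.73%) were at least 2-fold higher in P2 and 262 (2.22%) at least 2-fold higher in P3. The balance was thus the other way around from P4 and P5, with more genes on the low side. The log2 ratios of the 2 contrasts had a Spearman correlation of 0.611 across the 11373 genes compared in both, given as a description, since genes of 1 library share its depth and composition. P2 exceeded P3 for 307 of the 349 genes higher in P4, against 42.3% of all compared genes, and P2 fell below P3 for 98 of the 107 genes higher in P5, against 57.7%.

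At the 2-fold threshold, the shared genes were more numerous on the low side. Small RNAs and listed zeros are counted here again. Without them, the shared genes of both sides together numbered 62 and not 76. P4 and P2 shared 24 genes, which were 6.25% of the genes higher in P4 and 27.9% of those higher in P2, and P5 and P3 shared 52 genes, which were 34.7% and 19.8%. Cxcl13 had a log2 ratio of −2.07 for P4 to P5 and −2.78 for P2 to P3, and Frzb had −2.68 and −1.91. Il10 (−1.49 and −2.18), Trim9 (−1.40 and −3.01) and Il34 (−1.01 and −2.41) were lower in the ALDH-intermediate population of both gates. Ccdc3 (2.28 and 2.48), Nov (2.38 and 1.91) and Tnfrsf11b (2.21 and 2.07) were higher in it in both gates. Several of the largest differences between P4 and P5 had little counterpart, with log2 ratios of P2 to P3 of 0.05 for Ptx3, 0.17 for Adm, −0.13 for Ccl11, −0.06 for Agtr1a and −0.10 for Slc7a2. Whether the contrasts differ could not be tested with 1 library each.

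**Figure D5:**
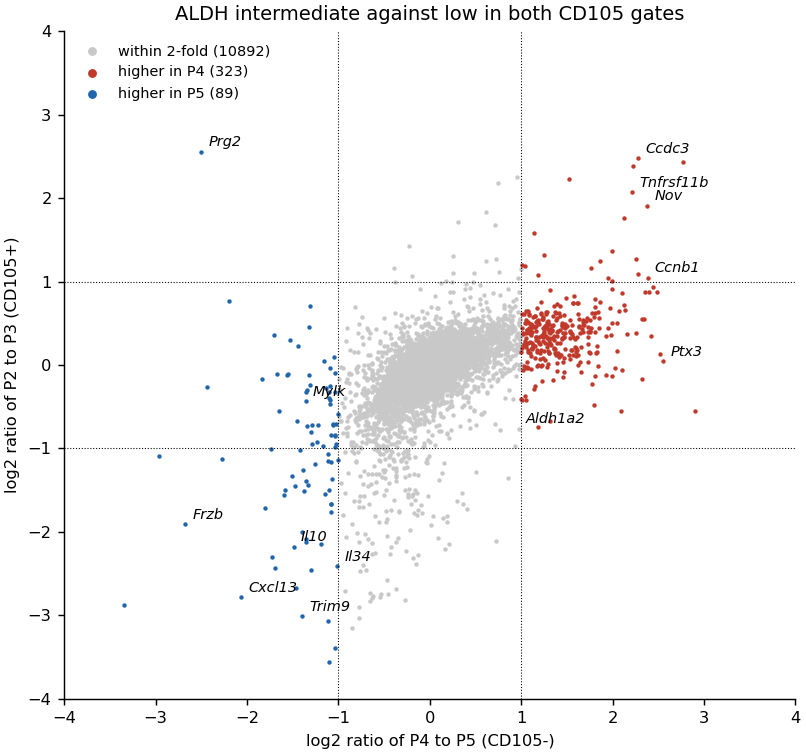
Log2 ratio of P4 to P5 (horizontal) and of P2 to P3 (vertical), on FPKM + 0.1, for 11304 genes compared in both contrasts and not small RNAs, 1 point per gene, with 10 genes beyond the axes. Colors give the calls between P4 and P5, and dotted lines stand at −1 and 1. Cxcl13, Frzb and Il10 lie low in both contrasts, Ccdc3, Nov and Tnfrsf11b lie high in both, and Ptx3 lies far to the right near the level line of P2 and P3.

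The step from P1 to P2, which lowers ALDH activity within CD105+ cells, also shares no library with P4 and P5. Of 11565 genes compared, 106 (0.917%) were at least 2-fold higher in P1 and 406 (3.51%) at least 2-fold higher in P2. With small RNAs and listed zeros included, P4 and P1 shared 47 genes, 12.2% of those higher in P4 and 44.3% of those higher in P1. P5 and P2 shared 61 genes, 40.7% of those higher in P5 and 15% of those higher in P2. Ptx3 (151 FPKM in P1 and 42.4 in P2), Ace (345 and 140 FPKM) and Ccl11 (688 and 337 FPKM) were lower in P2 than in P1, as they were in P5 than in P4. The study picked Ptx3 and Ace on these libraries as high in P1, so their order in P1 and P2 was fixed in advance.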

How the data were processed

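Wild-type C57BL/6 omentum was digested with Liberase TM and DNase I, sorted into P1 to P6, and sequenced as single-end 76-nt reads, with 1 library per population. The authors deposited FPKM values per gene. The submitters' processing notes name TopHat2 2.0.7, Cufflinks 2.1.1 and mm10, and the annotation and filters are not given in the sources used here. Rows that shared a symbol (495 per library) were summed. No scaling between libraries was added. Read depth was estimated from low FPKM values, which lay on multiples of a single read. With an assumed fragment of 200 nt, between 55.0% and 60.8% of the values worth at most 10 reads were whole to within 0.05 (10% if spread evenly). Counts were therefore estimates, and no count test was run. A gene was called at 2-fold on FPKM + 0.1 with a mean of at least 1 FPKM over both libraries. Members and the 48 gene lists were chosen with earlier results of these data known, and list symbols were matched through RefSeq synonyms. Named genes were the 15 with the widest ratio each way at a mean of at least 5 FPKM (without small RNAs and predicted genes), the 3 marker genes, gate and aldehyde dehydrogenase genes, called and most abundant list members, the 5 highest acinar genes and genes called opposite ways in P2 and P3. Markers of cell types, such as Adipoq, Lrrn4, Pecam1 and Rgs5, were named as well. Col6a5, Il6, Il7, genes at the edge of the 2-fold rule and genes marked as chosen after their values were seen lie outside this choice. Figures were drawn with matplotlib 3.10.9, and values were computed with scipy 1.17.1, pandas 2.3.3 and numpy 2.4.6 in Python 3.11.15, and the procedures were tested on simulated data. Alternatives for the pseudocount, minimum, scaling, repeated symbols and threshold were tried.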

Additional observations from a re-analysis of the deposited data

Results flagged for a closer look

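Of 12 genes called one way between P4 and P5 and the other way between P2 and P3, 9 were small RNAs. Of the other 3, Hba-a2 and Prg2 were flagged because the 2 CD105 gates moved in opposite directions, and the difference was not tested, since each population had 1 library. Hba-a2, a hemoglobin gene with a close copy in Hba-a1 between which reads may be split, had log2 ratios of 5.35 for P4 to P5 and −6.22 for P2 to P3. Prg2, an eosinophil granule protein gene, had −2.50 and 2.56, at 2.32 FPKM or less in each library. The third, Ebf2, had a log2 ratio of 1.91 for P4 to P5. It was listed at 0 in P2 and had 26.7 FPKM in P1 and 10.6 in P3. A listed 0 can be a failed estimate, so no ratio of P2 to P3 is given.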

How the results depend on the processing

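The 384 genes higher in P4, the 150 higher in P5 and the 76 shared with P2 and P3 in the same direction depended on the minimum and the threshold. They became 621, 286 and 164 with a mean of at least 0.1 FPKM, 657, 320 and 176 with no minimum, 201, 73 and 29 with a mean of at least 5 FPKM, 744, 433 and 301 at 1.5-fold, and 139, 63 and 21 at 3-fold. With a pseudocount of 1, 253 genes were higher in P4 and 44 were shared. Under the other scalings, 360 to 384 of the 384 genes and 109 to 150 of the 150 remained called. Division by Gapdh moved the median of all genes from −0.04 to 0.07. Among named genes, scaling ended the calls of Dpp4 and Podn (common sum, with or without acinar genes), of Ly6a and Fstl1 (quantile), of Il34 (median of ratios, Gapdh), of Foxs1 (median of ratios, Gapdh, quantile) and of Cadm4, Ltbp2 and Fgfr4 (Gapdh), and it added Aldh1a2 (median of ratios, Gapdh) and Tnxb (Gapdh). Leaving out small RNAs and zeros, chosen after seeing the data, gave 349, 107 and 62. Fewer genes enter under a higher minimum, and the median of the mature adipocyte list then turned to −0.22, that of the endothelial list to −0.37 (−0.083 with no minimum) and that of the cell-cycle list to −0.030 at 5 FPKM, where Top2a alone of its called genes was left. The median of the MHC list turned to 0.0048 after division by Gapdh. No named gene that was called changed direction under an alternative that gave it a value. No paired analysis was possible because P4 and P5 had 1 library each, and no library could be left out. Depth limits genes of low level, and the counting interval included a ratio of 2 for 66 of 344 genes higher in P4 and for 33 of 99 higher in P5.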
